A study of Homo sapiens with 6 samples.

Results

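Cancer-testis antigen genes are named for their expression in the germ cells of the testis and in tumours of many origins, with little or none in other adult tissues. Most lie in families of near-identical copies on chromosome X, and the class is known for being silenced in somatic cells by DNA methylation of CpG-containing promoters. The description that follows covers the members of the best known families in ovarian carcinoma cells with and without CDK12, a kinase that phosphorylates RNA polymerase II with its partner cyclin K. Members were the protein-coding genes with a symbol that starts with MAGEA, MAGEB, MAGEC, CT45A, SSX, PAGE, XAGE or GAGE and a number, together with the single genes CTAG1B, CTAG2, PRAME, CTCFL (BORIS), DAZL, DDX4, TEX14, SYCP1, SYCP3 and MAEL. The rule found 78 genes of the 60483 listed, 69 of them on chromosome X and 9 on autosomes. The families held 13 GAGE, 12 MAGEA, 11 MAGEB, 9 CT45A, 9 SSX, 6 PAGE, 5 XAGE and 3 MAGEC genes. One of the 9 SSX symbols is SSX2IP, an autosomal gene for a centrosomal protein that binds SSX2. It met the rule by its name and is not itself a cancer-testis antigen, so its values are given apart.

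RNA-seq was available for 3 libraries of parental A2780 cells, labelled WT, and 3 libraries of A2780 cells labelled CDK12 KO. A2780 is an established human ovarian carcinoma line, and both groups were grown in RPMI with serum and glutamine and received no drug. The KO cells came from CRISPR/Cas9 directed at exon 1 of CDK12 and were a single clone, so the loss of CDK12 and any other property of that clone cannot be told apart. The study reports a higher DNA content and more chromosomes in the clone than in the parental cells, so the groups differ in ploidy as well. The study's methods give no separate culture for each library, and p-values therefore measure the spread between these libraries, which may be technical. The RNA was from bulk cells, so fewer cells that express a gene and less RNA per cell cannot be told apart.

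Total counts per library ranged from 11098400 to 30899045, and the smallest belonged to WT replicate 3. Levels are given as counts and as CPM, counts per 1e6 of the TMM-scaled library total. In the targeted gene, CDK12, the WT libraries held 2831, 3759 and 1294 counts and the KO libraries 2432, 2504 and 1818. CDK12 averaged 115 ± 11.1 CPM over WT libraries and 98.0 ± 4.64 CPM over KO libraries (SD, n = 3 each), and its log2 fold change was -0.23 (SE 0.0582, adjusted p = 0.00082 with edgeR's quasi-likelihood test). A count per gene does not separate edited from unedited transcripts, so it checks the labels only in part. Of the epithelial markers, KRT18 (59.9 CPM in WT, 103 CPM in KO), KRT8 (7.34 and 11.0 CPM), EPCAM (3.19 and 2.17 CPM) and CLDN4 (1.07 and 1.58 CPM) were present, while CDH1, MUC16, ESR1 and PAX8 were at 0.2 CPM or below in both groups. All of these levels are means over 3 libraries.

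Most members had no counts in either group. No read was counted in any library for 51 of the 78 members, and 19 more had a count but too few to be tested, with at most 6 counts in a library and at most 22 over the 6 libraries. Germline specific genes were among them: DAZL, an RNA-binding protein of germ cells, stood at 0 in every library, and DDX4, the germ cell RNA helicase also known as Vasa, had 4, 2 and 0 counts in WT and 6, 6 and 4 in KO. Of the 19, 8 had more counts in KO, 8 had fewer and 3 had the same number. A count of 0 over the group allows a level of up to 0.0438 CPM in WT and 0.0433 CPM in KO (3 counts over the 3 libraries), and these limits cover counting error only. In all, 8 members were tested, which needs about 0.394 CPM in 3 libraries. They were CT45A1, CT45A5, CT45A10, MAGEC3, CTCFL, TEX14, PRAME and SSX2IP.

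Near-identical copies limit what a count of 0 can show. The reads were 75 bases long, and a read from a stretch shared by several copies cannot be placed on one of them. Each 75-base window of a member's exons was therefore looked up in the genome, and each window of its spliced transcripts in all annotated transcripts. Windows across an exon junction were not looked up in the genome. In 46 members at least 50% of the exonic windows occurred once, and 25 of these were at 0 in all libraries. They included 10 of the 11 MAGEB genes and 7 of the 12 MAGEA genes, whose proteins bind RING ubiquitin ligases, as well as CTAG2 and DAZL. At the other end, 15 members had no unique window at all, and their counts were 0 in every library. These 15 were 7 GAGE genes, CT45A2, CT45A7, CT45A8, CT45A9, SSX2, SSX4, XAGE1A and CTAG1B (NY-ESO-1). For them the counts do not show whether the gene was silent. How reads with several matches were treated is not given in the sources used here.

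**Figure D1:**
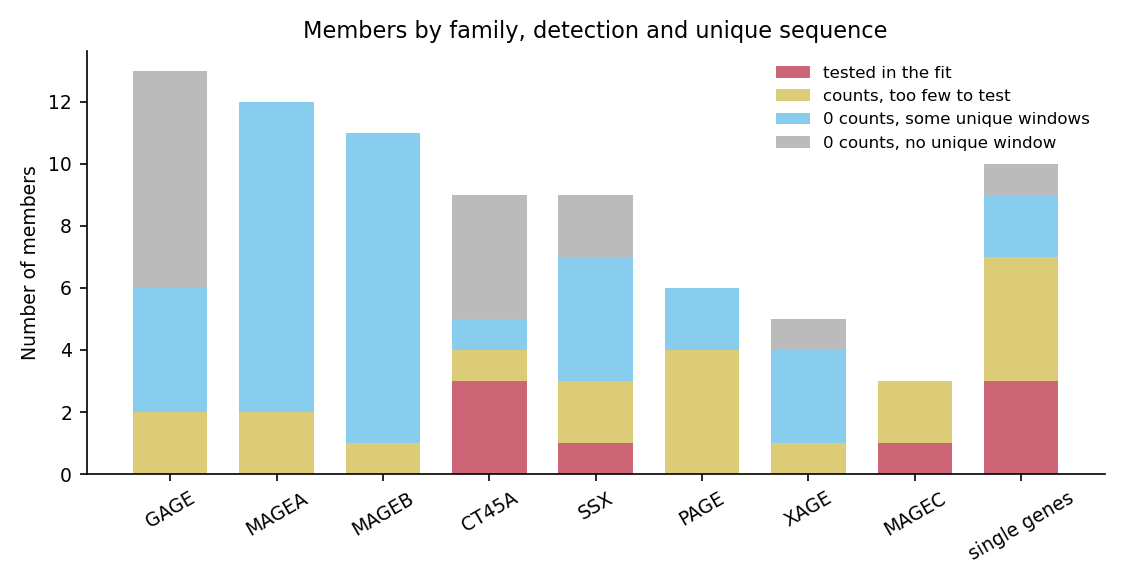
Number of members in each family, with the 10 single genes in the last bar, divided by whether the gene was tested, had counts too few to test, or had 0 counts in all 6 libraries with or without a unique 75-base window. MAGEA and MAGEB members with 0 counts all had some unique windows, while 7 of 13 GAGE genes and 4 of 9 CT45A genes had none.

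CT45A is a family of nuclear proteins found in testis and in tumours. Of its 9 genes, CT45A1, CT45A5 and CT45A10 were near 0 in WT and had counts in every KO library, while the other 6 had few or no counts in either group. The 9 genes lie within 179.8 kb of chromosome X, and CT45A1 is on the plus strand while the other 8 are on the minus strand. The promoters below are those of CT45A1 and CT45A10, which had counts, and of CT45A7, which had none. With no unique window, the 0 of CT45A7 does not show whether it was silent. Apart from the upstream start of CT45A10, the windows share almost the same sequence. Each line holds the 250 bases before a RefSeq start (build GRCh38.p14), 5′ to 3′ on the strand of the gene, with CpG pairs in capitals. CT45A1 is chrX:135713389-135713638 on the plus strand, CT45A7 is chrX:135837080-135837329 on the minus strand, and the upstream and downstream starts of CT45A10 are chrX:135893445-135893694 and chrX:135888897-135889146 on the minus strand.
CT45A1: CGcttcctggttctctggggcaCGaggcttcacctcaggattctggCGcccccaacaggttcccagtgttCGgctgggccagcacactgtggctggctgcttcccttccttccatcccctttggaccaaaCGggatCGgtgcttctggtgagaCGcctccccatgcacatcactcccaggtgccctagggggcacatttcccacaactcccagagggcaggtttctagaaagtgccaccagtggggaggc
CT45A7: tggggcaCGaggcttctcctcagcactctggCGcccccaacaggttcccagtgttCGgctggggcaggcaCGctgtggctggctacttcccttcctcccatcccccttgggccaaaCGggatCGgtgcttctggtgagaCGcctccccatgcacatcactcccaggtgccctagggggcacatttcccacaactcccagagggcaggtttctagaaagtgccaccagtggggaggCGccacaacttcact
CT45A10 upstream start: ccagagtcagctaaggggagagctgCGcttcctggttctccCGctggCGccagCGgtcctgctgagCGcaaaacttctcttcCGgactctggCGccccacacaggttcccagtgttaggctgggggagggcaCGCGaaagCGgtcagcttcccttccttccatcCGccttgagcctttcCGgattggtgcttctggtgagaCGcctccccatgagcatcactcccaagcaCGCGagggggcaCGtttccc
CT45A10 downstream start: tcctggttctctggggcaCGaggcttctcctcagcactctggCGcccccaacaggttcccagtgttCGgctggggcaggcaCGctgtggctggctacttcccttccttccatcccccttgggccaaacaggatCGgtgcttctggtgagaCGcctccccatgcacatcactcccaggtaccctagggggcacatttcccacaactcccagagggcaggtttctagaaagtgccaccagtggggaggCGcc

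CT45A7 had 0 counts in every library and no unique window, and its promoter matched that of CT45A1 at 96.2% of the aligned bases and the downstream start of CT45A10 at 98.7%. The downstream start of CT45A10 matched CT45A1 at 95.9%. The upstream start of CT45A10 stood apart, with identities of 77.1% to 79.8% to the other three windows. It also held 16 CpG pairs, against 7 for CT45A1, 8 for CT45A7 and 7 for the downstream start.

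CT45A10 (ENSG00000269586.6, X:135881063-135893444) had the most counts of the family. There were 3, 2 and 2 counts in the WT libraries and 160, 182 and 108 in the KO libraries. All 3 KO libraries lay far above all 3 WT libraries. CT45A10 averaged 0.119 ± 0.0572 CPM over WT libraries and 6.45 ± 0.351 CPM over KO libraries (SD, n = 3 each). The fitted log2 fold change was 5.91 (SE 0.267, adjusted p = 3.77e-19 with edgeR's quasi-likelihood test), and the ratio of pooled counts was 63.5, with an exact 95% counting interval of 30.6 to 159.

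CT45A1 (ENSG00000268940.4, X:135713639-135723539) had 2, 0 and 0 counts in WT and 66, 78 and 45 in KO. The groups did not overlap, and 2 of the 3 WT libraries held no read of the gene. CT45A1 averaged 0.0243 ± 0.0421 CPM over WT libraries and 2.7 ± 0.185 CPM over KO libraries (SD, n = 3 each). The pooled ratio was 93.4, with a wide exact 95% interval of 25.5 to 777 because it rests on 2 WT counts. The fitted log2 fold change was 6.30 (SE 0.434, adjusted p = 2.78e-14 with edgeR). It was 8.91 without WT replicate 1, which held both WT counts, and 5.56 without WT replicate 2, with an adjusted p of at most 1.5e-10 whichever library was left out.

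CT45A5 (ENSG00000228836.7, X:135775852-135785503) had 0 counts in each WT library and 17, 29 and 14 in the KO libraries. The KO libraries averaged 0.852 ± 0.201 CPM (SD, n = 3). Pooled over the 3 libraries the KO level was 0.866 CPM, at least 19.8-fold higher than the limit that a WT count of 0 allows. The test across all genes gave an adjusted p of 5.28e-09 with edgeR. No exonic window of CT45A5 was unique, and its identity rests on 74 windows that span an exon junction, 2.8% of its 2632 spliced windows. These 74 windows were looked up in annotated transcripts only and not in the genome.

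The other CT45A genes had few or no counts. CT45A3 had 1, 0 and 0 counts in WT and 0, 0 and 4 in KO with 127 unique spliced windows. CT45A6 had 0 counts with 14 unique windows. Set against the number of unique windows, the 3 KO libraries together gave 121 counts per 100 windows for CT45A1, 112 for CT45A10 and 81.1 for CT45A5. These ratios lay much closer to each other than the counts themselves, which were 189, 450 and 60. CT45A3, with nearly as many unique windows as CT45A1 (127 and 156), lay far below these ratios, with 4 KO counts or 3.15 per 100 windows. CT45A6 did not share them either, with 0 counts on its 14 unique windows. Summed over the 9 genes, the family level was 0.219, 0.0668 and 0.18 CPM in the WT libraries and 9.89, 10.7 and 9.61 CPM in the KO libraries. Because reads may be shared among copies, the split between CT45A1, CT45A5 and CT45A10 is uncertain, and the sum carries no such split.

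The genes on both sides of the CT45A cluster were expressed in both groups and moved much less. The nearest tested gene below it, INTS6L, a relative of an Integrator subunit, had a log2 fold change of 0.95 (SE 0.0521, adjusted p = 6.94e-17 with edgeR), under the fold threshold. On the far side, the nearest tested gene, MMGT1, had a log2 fold change of 0.12 (SE 0.0642, adjusted p = 0.114 with edgeR). SAGE1, another cancer-testis gene, overlaps CT45A10 by 3263 bases on the opposite strand. It had 13, 11 and 3 counts in WT and 0 in each KO library, and it was too low to be tested with the filter. Its WT level was at least 9.11-fold higher than a KO count of 0 allows. The library kit marks strand, but the strand setting used in counting is not given in the sources used here.

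MAGEC3 was the only MAGE gene of the A, B and C families with enough counts to be tested. MAGEC3 (ENSG00000165509.12, X:141838316-141897832) had 8, 3 and 1 counts in WT and 28, 41 and 30 in KO. Every KO library was above every WT library, with averages of 0.161 ± 0.114 CPM for WT and 1.45 ± 0.28 CPM for KO (SD, n = 3 each). The log2 fold change was 2.99 (SE 0.368, adjusted p = 1.74e-08 with edgeR), and 3.80 without WT replicate 1. Of its exonic windows, 99% were unique, so shared reads do not limit it. Its neighbours of the same family on chromosome X, MAGEC1 and MAGEC2, had at most 1 count in any library, with 99.8% and 100% unique windows. The nearest tested genes outside the family, LDOC1 at 661 kb and FMR1 at 6014 kb, had log2 fold changes of -0.11 (SE 0.0648) and 0.30 (SE 0.0529). Of the 3 nearest on each side, ENSG00000230707 (3.43), LINC00632 (1.23) and FTH1P8 (1.18) were called higher and the others were not called.

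The other chromosome X families gave almost no reads. In GAGE, GAGE10 had 2, 4 and 0 counts in WT and 1, 1 and 4 in KO, and the groups overlapped. In PAGE, PAGE2B had 1, 2 and 2 counts in WT and 0, 3 and 1 in KO. The MAGEA, MAGEB, XAGE and SSX genes other than SSX2IP had at most 2 counts in a library. Of 10 rows that carry a symbol of these families but are not protein coding, 3 had a count, and the largest was 2.

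TEX14, a kinase-like protein that keeps the bridges between dividing germ cells open, was well above 0 in both groups. TEX14 (ENSG00000121101.14, 17:58556678-58692055) had 149, 163 and 62 counts in WT and 477, 554 and 413 in KO. In CPM these were 5.44, 5.44 and 5.58 against 19.4, 20.6 and 23.2, with no overlap and little spread within a group. The level was 3.83-fold higher in KO, a log2 fold change of 1.94 (SE 0.0952, adjusted p = 3.68e-18 with edgeR), and the value stayed between 1.87 and 1.99 whichever library was left out. IGBP1C, annotated on the same strand within the span of TEX14 over 31622 bases, also rose, from 10, 5 and 0 counts in WT to 36, 45 and 22 in KO (log2 fold change 2.73, SE 0.363, adjusted p = 7.89e-08 with edgeR). Reads of the 2 genes may be hard to tell apart where they overlap. RAD51C, the recombination gene that starts 0.518 kb away on the opposite strand, differed by a log2 fold change of 0.44 (SE 0.0508, adjusted p = 5.45e-09 with edgeR).

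CTCFL, the testis paralogue of the insulator protein CTCF, was low in WT and higher in KO. CTCFL (ENSG00000124092.11, 20:57495966-57525652) had 16, 13 and 4 counts in WT and 43, 36 and 22 in KO. The levels did not overlap, at 0.584, 0.434 and 0.36 CPM in WT and 1.75, 1.34 and 1.24 CPM in KO. The log2 fold change was 1.59 (SE 0.28, adjusted p = 1.03e-05 with edgeR). The nearest tested genes on each side, RBM38 (-0.03, SE 0.0699) and PMEPA1 (-0.27, SE 0.0915), had small log2 fold changes.

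PRAME was lower in KO. PRAME, a leucine-rich repeat protein that serves a cullin ubiquitin ligase and represses retinoic acid receptor signalling, was by far the most abundant cancer-testis antigen of the rule. Its RefSeq promoter at the gene's outer start is shown because PRAME had the highest level of the members in both groups. The 250 bases before the start at chr22:22559266-22559515 (GRCh38.p14, minus strand) held 9 CpG pairs, in capitals.
PRAME: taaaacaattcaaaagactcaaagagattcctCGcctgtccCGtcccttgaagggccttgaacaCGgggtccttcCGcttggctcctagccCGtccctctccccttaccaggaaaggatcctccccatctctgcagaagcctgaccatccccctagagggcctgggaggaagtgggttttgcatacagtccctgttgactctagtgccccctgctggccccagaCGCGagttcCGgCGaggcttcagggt

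PRAME (ENSG00000185686.16, 22:22547701-22559361) had 5011, 5234 and 1910 counts in WT and 2524, 2957 and 1756 in KO. After scaling these were 183, 175 and 172 CPM in WT and 103, 110 and 98.7 CPM in KO, and each KO library was below each WT library. The level was 1.7-fold lower in KO, a log2 fold change of -0.77 (SE 0.0504, adjusted p = 8.62e-15 with edgeR), which passed the adjusted p but not the fold threshold. Leaving out any library gave values between -0.81 and -0.73. Without SSX2IP, PRAME held 96.3% of all member counts in WT and 75.1% in KO. The zinc finger gene ZNF280A, 27.4 kb away, was lower as well, with 114, 132 and 43 counts in WT against 26, 22 and 11 in KO (log2 fold change -2.30, SE 0.194, adjusted p = 4.35e-12 with edgeR), while ZNF280B, 39.0 kb away, had a log2 fold change of -0.22 (SE 0.0738, adjusted p = 0.00913).

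SSX2IP was at 68.8, 74.4 and 74.4 CPM in WT and 81.6, 75.1 and 84.3 CPM in KO. Its log2 fold change was 0.15 (SE 0.0547, adjusted p = 0.0183 with edgeR). The difference no longer passed when WT replicate 1 (0.10, adjusted p = 0.127), KO replicate 1 (0.13, adjusted p = 0.0785) or KO replicate 3 (0.12, adjusted p = 0.11) was left out.

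**Figure D2:**
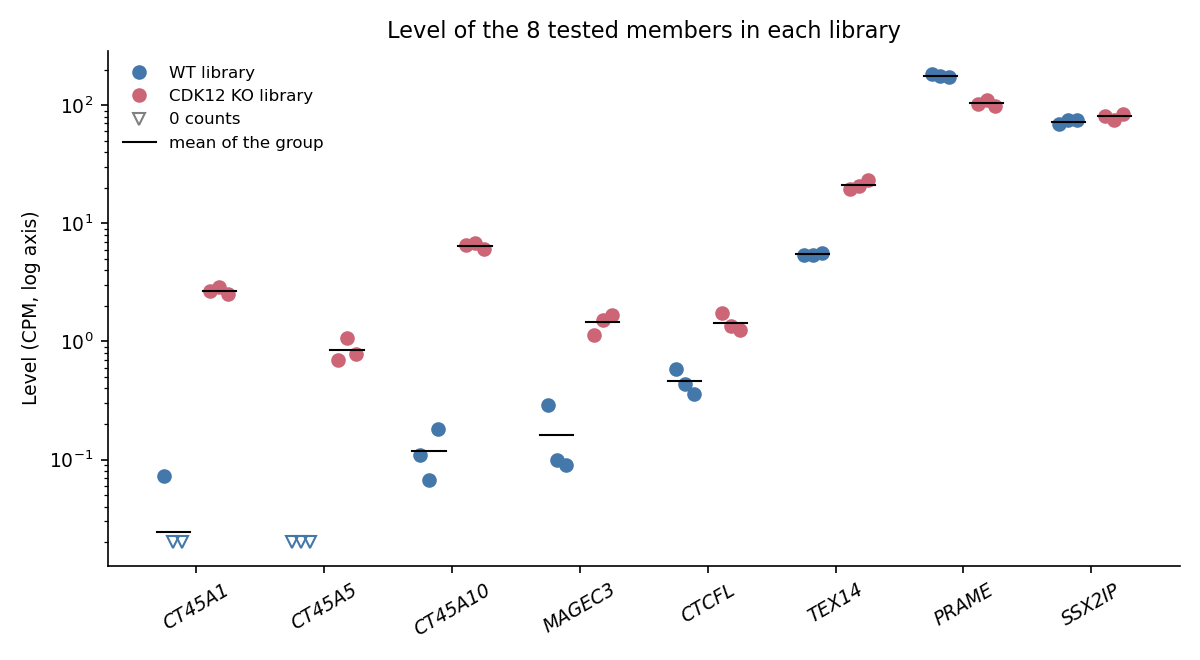
Level in CPM, on a log axis, of the 8 tested members in each of the 3 WT and 3 KO libraries, with the group mean as a bar. Open triangles at the lower edge mark libraries with 0 counts. The WT and KO points do not overlap for any of the 8 genes, and KO lies above WT in all of them except PRAME. Of all genes tested, 32.8% had the KO libraries wholly above the WT libraries and 33.5% wholly below, and 5 of the 8 passed the filter only with the KO libraries, so nothing is read from this count.

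Compared per kilobase of exon, the order of the members in WT was PRAME (46.4 CPM per kb), SSX2IP (8.47), TEX14 (1.03), CT45A10 (0.107), MAGEC3 (0.0582), CTCFL (0.0514) and CT45A1 (0.0214), with CT45A5 at 0. In KO it was PRAME (27.3 CPM per kb), SSX2IP (9.39), CT45A10 (5.8), TEX14 (3.96), CT45A1 (2.37), MAGEC3 (0.525), CT45A5 (0.322) and CTCFL (0.161). CT45A10 thus stood above TEX14 in KO and below it in WT. Levels of CT45A genes per kilobase depend on how reads that match several copies were treated, which is not given in the sources used here.

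A gene was called when its adjusted p was under 0.05 and its log2 fold change was above 1 or below -1. Among the 8 tested members, 6 were called higher in KO (CT45A1, CT45A5, CT45A10, MAGEC3, TEX14 and CTCFL), beside 8.3% of the 16198 genes tested, and 0 were called lower, beside 7.73%. At the adjusted p alone 7 were higher, beside 31.9% of all genes, and 1, PRAME, was lower, beside 32.0%. The 7 were the 6 called genes and SSX2IP, which is not a cancer-testis antigen. Without SSX2IP, 6 of 7 tested members were higher. The same 7 and 1 came from the unadjusted p under 0.05, and voom with limma and DESeq2 each called 6 higher and 0 lower. The member counts are not read against these shares, because 5 of the 8 needed the KO libraries, in which they are higher, to pass the filter: CT45A1, CT45A5, CT45A10 and MAGEC3 were under its level in each WT library and CTCFL in 1 of 3. The 3 CT45A genes were also the only members with at least 10 counts in each KO library and at most 3 in each WT library, which 0.205% of all genes listed showed. The reverse pattern was found for 0 members and for 0.314% of all genes listed. For single members the exact two-sided permutation test of log2 CPM gave p = 0.1 for each of the 8, the smallest that 3 against 3 libraries allow.

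**Figure D3:**
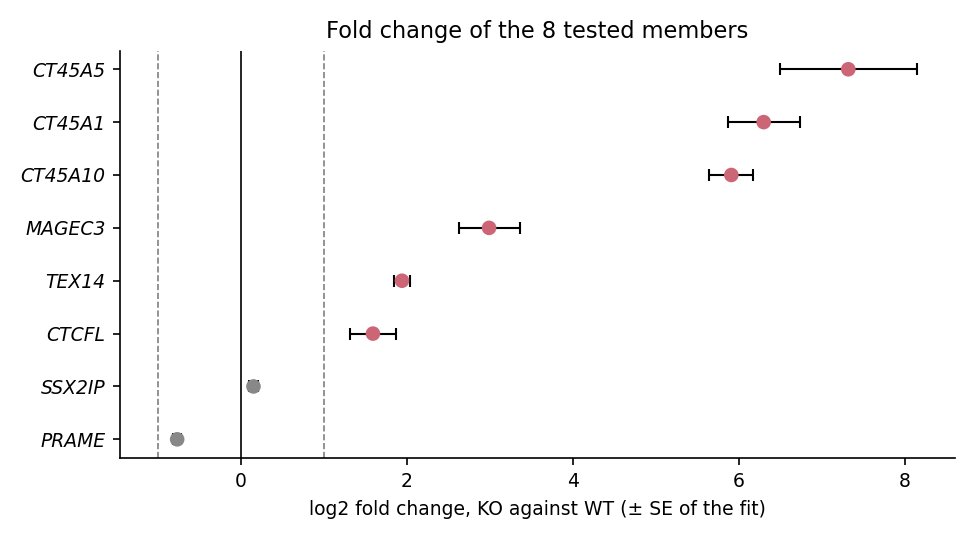
Log2 fold change of KO against WT for the 8 tested members, with a standard error derived from edgeR's F statistic. DESeq2 gave larger standard errors for the CT45A genes, which are near 0 in WT. These were 1.01 against 0.434 for CT45A1, 0.571 against 0.267 for CT45A10 and 1.27 against 0.826 for CT45A5. Dashed lines mark the fold threshold at -1 and 1 and red points the 6 genes called higher. Values run from -0.77 for PRAME to 7.32 for CT45A5, whose WT counts are 0, so that its fitted value depends on the prior count.

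Most members lie on chromosome X, so its other genes were counted as well. Of the 442 tested protein-coding genes of the chromosome, 9.95% were called higher and 5.43% lower, and without the members these shares were 9.13% and 5.48%. On the autosomes 6.88% of 12289 genes were called higher and 8.16% lower. The median log2 fold change was 0.02 on chromosome X and -0.03 on the autosomes.

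Promoter windows of 300 bases, from 250 before to 50 after a RefSeq start, were at hand for 64 of the 78 members (87 windows) and for 27305 genes in all (35116 windows). The members' windows held a median of 13 CpG pairs, against 14 in all windows, and the median ratio of observed to expected CpG was 0.47 against 0.58. The ETS motif CCGGAAG, searched on both strands, was present in 4 of the 87 windows (4.6%, against 10.3% of all windows), one of them the upstream start of CT45A10. The GC box GGGCGG was present in 33.3% of the members' windows and 45.0% of all windows. The E-box CACGTG was present in 24.1%, against 7.26%, but 13 of these 21 windows belonged to GAGE copies of nearly the same sequence. None of the windows of CT45A1, CT45A7 or CT45A10 held GGGCGG or CACGTG. These are matches of letters and not binding sites.

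Other germline genes were read beside the members, from lists written with earlier results of these data known. Among 83 further cancer-testis genes, 16 were tested, 1 was called higher and 2 lower, beside 8.3% and 7.73% of all genes tested. Their median log2 fold change was -0.21, beside 0.0 over all genes tested. The one that rose was TDRD6, a Tudor protein of the germ cell chromatoid body, with 1, 2 and 2 counts in WT and 117, 144 and 88 in KO (log2 fold change 6.00, SE 0.308, adjusted p = 1.19e-17 with edgeR). All its KO libraries were above its WT libraries. The sperm calcium-binding protein CABYR fell, from 305, 328 and 136 counts in WT to 73, 89 and 53 in KO (-1.86, SE 0.117, adjusted p = 2.29e-15), and CCDC110 fell by 1.18 on the log2 scale (SE 0.192, adjusted p = 2.64e-06).

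Genes of meiosis and of the piRNA pathway moved in both directions. Of 50 listed, 19 were tested, 4 were called higher and 4 lower, beside 8.3% and 7.73% of all genes tested, with a median log2 fold change of -0.30. Beside TDRD6, the genes that rose were TEX19, which restrains transposons in germ cells (234, 273 and 62 counts in WT, 1672, 1816 and 1377 in KO, log2 fold change 3.11, SE 0.0876), the crossover gene MSH4 (2.35, SE 0.33) and the helicase HFM1 (1.16, SE 0.215). The meiotic recombination factor MEIOB fell from 18, 15 and 8 counts to 0 in all 3 KO libraries, which is at least 13.8-fold lower, and the synaptonemal complex gene SYCE1 from 18, 16 and 5 counts to 0, at least 13.2-fold lower. The meiotic cohesin RAD21L1 fell by 2.87 (SE 0.523), with values of -2.26 without KO replicate 1 and -4.73 without KO replicate 2, and the phospholipase PLD6 fell by 1.14 (SE 0.132). The adjusted p of these 7 genes was at most 1.97e-05 with edgeR. The members of the rule that act in meiosis had few counts: SYCP3, a lateral element protein of the synaptonemal complex, had 1, 0 and 0 counts in WT and 2, 6 and 3 in KO, SYCP1 had at most 1 count in a library, and MAEL, a piRNA pathway protein, had 1, 1 and 0 in WT and 1, 4 and 2 in KO. With no filter, SYCP3 had a log2 fold change of 3.03 and an adjusted p of 0.0256 with edgeR.

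**Figure D4:**
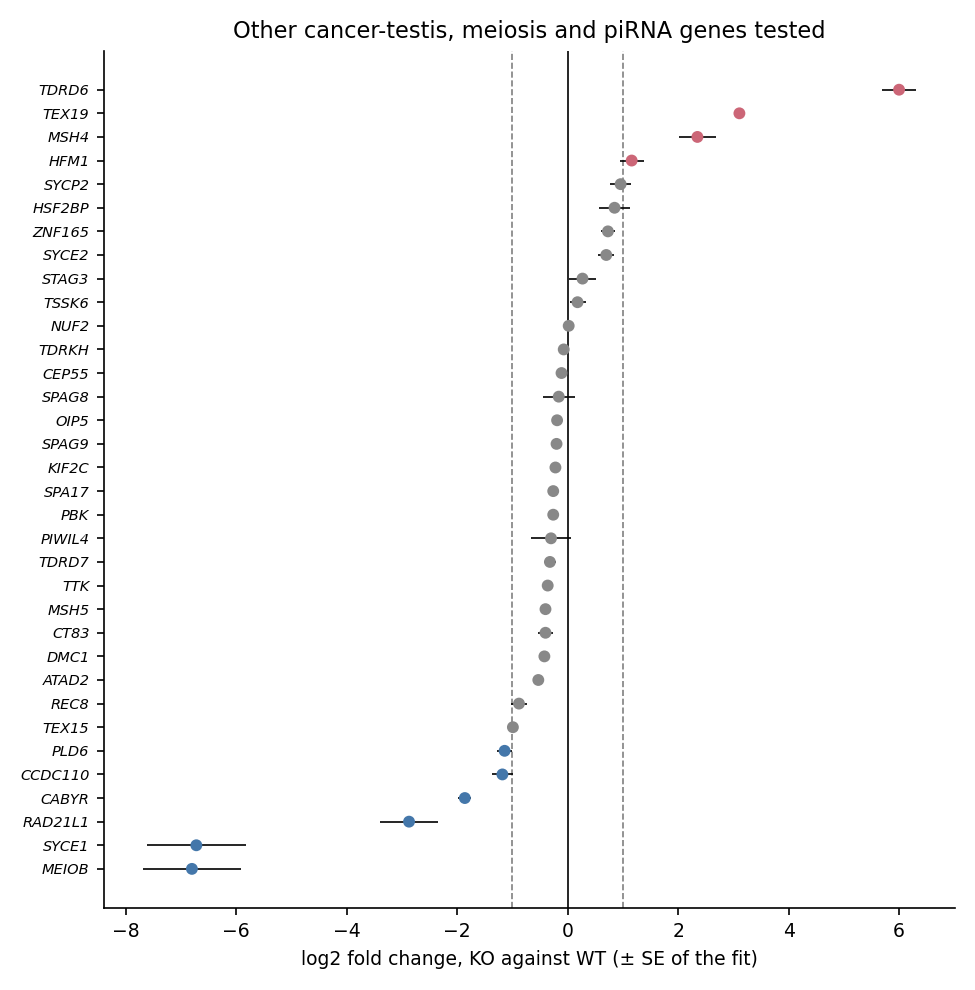
Log2 fold change of KO against WT, with a standard error derived from edgeR's F statistic, for the 34 tested genes of the lists of other cancer-testis genes and of meiosis and piRNA genes. Red points were called higher and blue points lower, and dashed lines mark the fold threshold. Values run from -6.80 for MEIOB to 6.00 for TDRD6, and those of MEIOB and SYCE1 depend on the prior count because their KO counts are 0.

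Of 22 germ cell and pluripotency genes, 7 were tested. KLF4 (2.28, SE 0.176) and ZFP42 (2.06, SE 0.239) were called higher and SOX15 (-1.40, SE 0.118) lower on the log2 scale, beside 8.3% and 7.73% of all genes tested. Alternatives moved the number called lower: it was 2 without WT replicate 1, WT replicate 2 or KO replicate 3, 3 without KO replicate 1 or KO replicate 2, and 2 with voom or DESeq2. The RNA-binding protein LIN28A was at 69.1 CPM in WT and 63.7 CPM in KO. Among the MAGE genes of type II, which are expressed in many tissues, 8 of 12 were tested. At the adjusted p alone 7 were lower and 1 higher, beside 32.0% and 31.9% of all genes tested. With the fold threshold 1, MAGEL2, was called lower (-1.10, SE 0.314, adjusted p = 0.00297 with edgeR), beside 7.73%. It no longer passed the fold threshold without WT replicate 2 (-0.91, adjusted p = 0.0369).

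A list of 40 genes linked to DNA methylation and silencing held TET1, TET2, TET3, CTCF and ZNF711 beside silencers. Its counts are therefore not counts of silencers alone. Of the 39 tested, 1 was called higher and 2 lower, beside 8.3% and 7.73% of all genes tested. ATF7IP, a partner of the histone methyltransferase SETDB1, was called higher (1.02, SE 0.0563). The methyl-CpG reader ZBTB33 (Kaiso) was called lower (-1.68, SE 0.0723), and so was the DNA methyltransferase DNMT3B (-1.01, SE 0.0674). At the adjusted p alone 8 of the 39 were higher and 22 lower, beside 31.9% and 32.0% of all genes tested, with a median of -0.19. DNMT3B had 990, 1197 and 425 counts in WT and 452, 533 and 325 in KO. ATF7IP fell under the fold threshold without WT replicate 1 (0.95), KO replicate 1 (0.99) or KO replicate 3 (0.99), and DNMT3B without WT replicate 2 (-0.97), KO replicate 1 (-1.0) or KO replicate 3 (-0.99). The maintenance methyltransferase DNMT1 was lower by less, at -0.19 (SE 0.0471, adjusted p = 0.000608), and its partner UHRF1 at -0.40 (SE 0.0532, adjusted p = 8.7e-08). DNMT3A had a log2 fold change of -0.10 (SE 0.0464, adjusted p = 0.058), and DNMT3L was at 0 in every library. Whether these levels bear on the members was not tested.

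Of 18 protein partners of MAGE and PRAME, 17 were tested. Of these, 0 were called higher and 1 lower, beside 8.3% and 7.73% of all genes tested. The ubiquitin ligase LNX1 was called lower, with 105, 87 and 38 counts in WT and 5, 1 and 0 in KO (-5.20, SE 0.365, adjusted p = 4.73e-14 with edgeR, and -6.92 without KO replicate 1).

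Markers of other cells moved with the groups too. The counts of called markers stand beside 8.3% called higher and 7.73% called lower among all genes tested. Of the 6 markers of somatic testis cells, 5 were tested, and INHA (1.05, SE 0.138, and 0.99 without WT replicate 3) and DHH (3.67, SE 0.427, and 4.36 without WT replicate 2) were called higher. Their summed level was 7.91 to 9.78 CPM in WT and 13.7 to 14.3 CPM in KO. Of 10 fibroblast and mesenchymal markers 9 were tested. At the adjusted p alone 1 was higher and 7 were lower, beside 31.9% and 32.0% of all genes tested. With no filter, THY1 had a log2 fold change of 0.27 and COL3A1 one of -0.01. With the fold threshold, 0 were called higher and 6 were called lower. These were PDGFRA (-2.63, SE 0.0657), COL1A1 (-2.37, SE 0.055), VIM (-2.28, SE 0.053), PDGFRB (-1.92, SE 0.138), and DCN and LUM, which had 0 counts in KO and were at least 17.2-fold and 14.5-fold lower, and the list's summed level was 18540 to 18808 CPM in WT and 10163 to 10442 CPM in KO. Of 12 epithelial markers, 4 were tested and 0 were called by edgeR, voom or DESeq2, while at the unadjusted p 3 were higher (KRT18, KRT8 and CLDN4) and 1, EPCAM, was lower (-0.53, SE 0.184, adjusted p = 0.0119). Their summed level was 69.6 to 74.9 CPM in WT and 116 to 121 CPM in KO. Of the endothelial markers VWF was called higher (2.00, SE 0.418) and CLDN5, with 0 counts in KO, lower by at least 12.8-fold, and CLDN5 was no longer tested without WT replicate 2. Of the leukocyte markers CD14 was called higher (1.02, SE 0.367), but not without WT replicate 2 (0.70, adjusted p = 0.144) or KO replicate 2 (0.68, adjusted p = 0.171). Endothelial markers summed to at most 1.08 CPM and leukocyte markers to at most 1.15 CPM in any library. None of these markers stood at 0 in all libraries, and their part in the values of the members was not tested.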

How the data were processed

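RNA-seq libraries of A2780 WT and CDK12 KO cells (3 each, grouped by the genotype in the labels) were stranded single-end reads of 75 bases. The authors deposited raw counts per gene. Per the labels and the study's methods, reads were checked with FastQC, aligned with STAR to GRCh38 and counted with HTSeq, and the versions, annotation release and handling of reads with several matches are not given in the sources used here. No normalization had been applied to the counts, and 0 columns of values were left unused.

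Identifiers were matched without version to GENCODE release 44 (93.1% of 60483). Genes were kept with filterByExpr (16198 genes), scaled with TMM and tested with edgeR 4.0.16 (glmQLFit, glmQLFTest, two-sided) in R 4.3.3, with Benjamini-Hochberg adjustment over all genes tested. The biological coefficient of variation was 4.35%. The SE of an edgeR log2 fold change was derived as its absolute value divided by the square root of the F statistic of its test. For genes near 0 in one group it may understate the uncertainty. Total counts per library were 11098400 to 30899045, and 3 counts corresponded to 0.1 to 0.27 CPM. The fit was tested on simulated data. Pooled ratios carry exact binomial 95% intervals, for counting error only, since the reads carried no molecular identifiers. Unique windows were found by looking up every 75-base window of exons in the GRCh38 primary chromosomes and every window of spliced transcripts in GENCODE transcripts. Windows across an exon junction were not looked up in the genome. Promoters came from RefSeq (GRCh38.p14) and were aligned with Biopython 1.88.

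The members and the gene lists were chosen with earlier results of these data known, so lists are described by counts and medians. The text names every member called or detected in one group, each tested member and every called cell marker. Of each other list and direction it names up to 5 called genes, with the DNMT genes and UHRF1. Counts of members too low to test, the other genes around members and LIN28A and SAGE1 were added after their values were seen. Alternatives were voom with limma 3.58.1, DESeq2 1.42.0, other scalings, filters and thresholds, thinning to the smallest library, and leaving out each library.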

Additional observations from a re-analysis of the deposited data

How the results depend on the processing

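Of 103 log2 fold changes of the 8 tested members and CDK12 under alternative settings, 0 changed direction and 3 no longer passed the adjusted p, all 3 of SSX2IP. When each library was left out in turn, 6 members were called higher and 0 lower every time, genes called higher ranged from 1377 to 1502 and lower from 1269 to 1369, and CDK12 ranged from -0.32 to -0.16 on the log2 scale. With at least 10 counts required in every library, 568 genes were called higher and 684 lower, and 1 member (TEX14) was called higher, since that filter removes genes near 0 in one group. At an adjusted p alone 5165 genes were higher and 5188 lower, and 1 member (PRAME) was lower. With members limited to those with at least 50% unique windows, 3 were called higher (MAGEC3, TEX14 and CTCFL). With 5 or more counts in each KO library and 0 in each WT library, 1 member (CT45A5) remained among those detected in KO only. After thinning to the smallest library, 2 of the 3 members remained, so that count depends on depth. Of 264 counts over the other lists, 37 moved by over 1.5 times, 11 of them under that minimum in every library. No paired analysis was possible because the labels number the 6 libraries in 1 series, so WT and KO share no replicate number. Depth limits the members near 0: WT replicate 3 was the shallowest, and 1 count there is worth more CPM than elsewhere.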

Other observations

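Among the tested genes nearest to members, several others passed both thresholds, and the following were chosen after their values were seen. Next to TEX14 on chromosome 17, the ubiquitin ligase RNF43 was higher in KO by 1.82 on the log2 scale (SE 0.209, adjusted p = 4.6e-09 with edgeR) and the phosphatase PPM1E was lower (-1.98, SE 0.271, adjusted p = 1.4e-07). Next to SSX2IP on chromosome 1, the ion channel genes MCOLN2 and MCOLN3 were neighbours among the tested genes and moved apart, with log2 fold changes of -5.36 (SE 0.191, adjusted p = 5.57e-22) and 1.69 (SE 0.0778, adjusted p = 6.07e-19). MTMR4 and SEPTIN4, which lie between RNF43 and TEX14, had log2 fold changes of -0.10 and 0.16 with adjusted p of 0.0826 and 0.327. With no filter on low counts, SAGE1 (-6.19, adjusted p = 1.92e-07) and the RNA helicase DDX53 (-4.51, adjusted p = 0.0169), both cancer-testis genes of chromosome X, were called lower, and SPAG6 of the same list, an autosomal gene, was called higher (1.83, adjusted p = 0.0286). The fitted values of such low genes depend on the prior count.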
